A study of Rattus norvegicus with 27 samples.

Results

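The step from postnatal day 15 (P15) to postnatal day 20 (P20), the start of weaning in the rat, was examined in acinar cells of the parotid gland. The comparison held 6 of the 27 arrays of the series, chosen by age alone: the 3 P15 arrays and the 3 P20 arrays. Both groups were Sprague Dawley rats with no treatment and no engineered allele in the labels. They shared the same capture by laser from sections of the dissected gland, and the study's methods assign each array to a separate litter. Sex is not given in the labels. The study reports that each cap was inspected and that its captures held no appreciable duct or connective tissue. A laser capture of acini can still take what lies between and within them, so transcripts of stroma, plasma cells or muscle can be part of a sample. The defining acinar markers were present at both ages: the parotid secretory protein Bpifa2 lay between 13.80 and 14.07 log2 units on the P15 arrays and between 13.96 and 14.18 on the P20 arrays.

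Parotid acinar cells are serous secretory cells. They make amylase, proline-rich proteins, antimicrobial proteins and nucleases in the endoplasmic reticulum (ER), pack them in granules, and release granules and fluid on nerve stimulation. They also carry immunoglobulin A, made by neighbouring plasma cells, across the epithelium into saliva. In the suckling rat the gland is still growing, and around weaning, when solid food replaces milk, it takes on its adult secretory output. Imprinted genes such as Igf2, Cdkn1c and Dlk1 are expressed from 1 parental allele and are known for high activity in fetal and neonatal tissue that declines after birth.

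Transcript levels are robust multi-array average values in log2 units, so that a difference of 1 is a doubling of signal. Array medians lay between 5.99 and 6.13 on the 6 arrays. Correlations between arrays of the same age were 0.946 to 0.962 at P15 and 0.922 to 0.948 at P20. Between 34 and 86 probe sets had identical values in a pair of arrays of 1 age, so no array was a copy of another. Changes are P20 minus P15 in log2 units ± the standard error (SE) from limma, fitted to all 27 arrays with 18 residual degrees of freedom. P-values are adjusted by Benjamini and Hochberg over 31042 probe sets, and the threshold was 0.05. They measure the spread between litters, and 3 arrays per age limit the precision. Where a gene had several probe sets, the one with the highest mean over the 27 arrays stands for it unless another is named, and levels of different genes are not compared. In captured tissue, fewer cells of a type and less RNA per cell cannot be told apart.

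Of the 31042 probe sets, 111 passed the threshold between P15 and P20, or 0.358%. Of these, 77 rose (0.248%) and 34 fell (0.11%). At an unadjusted p under 0.05 there were 2553 probe sets. The median change of all probe sets was 0.04 log2 units. With 1 probe set per gene, 68 of 14217 genes passed (0.478%), 47 higher (0.331%) and 21 lower (0.148%) at P20. All 111 probe sets had arrays that did not overlap between the ages. This separation alone is common, because every P20 array lay above every P15 array for 10.9% of genes and below for 8.02%. By the probe set that stands for each gene, the largest rises were those of Prp15, Dnase1, Prb3 and Jchain, saliva proteins and an immunoglobulin chain, and the largest falls those of Igf2, Agtr2, Cdkn1c and Gpc3, all known from fetal growth. Probe sets without a gene symbol lay among them, with 1392035_at the largest rise of these and 1380143_at the largest fall. The 68 called genes included 22 with further probe sets, 32 in all, of which 24 had a change of the same sign, 8 of the opposite sign, and 2 passed. The count moved with the arrays that entered the fit. It was 46 on the 6 arrays alone, with 29 of the 111 kept. On the 12 arrays of dissected gland it was 35, with 30 of the 111 kept. Without 1 of the 6 arrays it was between 59 and 96.

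**Figure D1:**
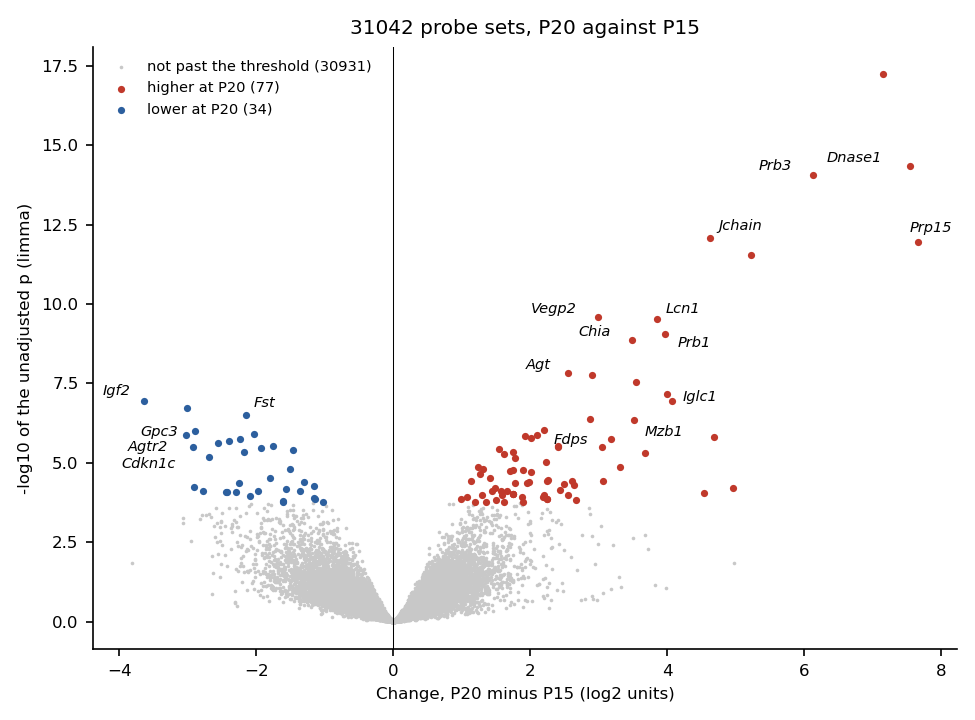
Change from P15 to P20 (x axis, log2 units) against the negative log10 of the unadjusted limma p (y axis) for 31042 probe sets, 1 point each. The 77 red points rose and the 34 blue points fell. The red points reach changes above 7, while no blue point lies below -4.

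The first question was which secretory products came on in this step. Dnase1, the proline-rich proteins, a chitinase and lipocalins rose, while amylase and the parotid secretory protein were high at both ages. Of 51 measured genes of secreted saliva proteins, 8 rose and none fell, against 0.331% of all genes that rose. Their median change was 0.38 log2 units, against 0.04 over all genes. Dnase1, the secreted nuclease deoxyribonuclease I, stood at 4.62, 5.30 and 6.57 on the P15 arrays and at 12.98, 13.14 and 13.03 on the P20 arrays. The lowest P20 array was more than 6 log2 units above the highest P15 array, and the P20 arrays lay within a narrow band. Dnase1 rose by 7.55 ± 0.39 (adjusted p = 7.09e-11 in limma). These values carry no call of detection, and 2 of its P15 arrays lay below the array medians, so no fold is given for it.

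The proline-rich proteins, which bind dietary tannins and coat the mouth, rose through 3 probe sets. Prp15 was at 3.37, 3.13 and 3.64 at P15, in the low range of the array, and at 11.20, 10.20 and 11.72 at P20, a rise of 7.66 ± 0.52 (adjusted p = 6.92e-09, limma). Prb3 went from 7.29, 8.16 and 7.24 to 13.73, 13.74 and 13.62, a rise of 6.13 ± 0.33 or 70-fold (adjusted p = 8.62e-11). Prb1 went from 4.15, 4.37 and 4.08 to 9.25, 7.02 and 8.22, a rise of 3.97 ± 0.38 (adjusted p = 3.06e-06). None of these overlapped between ages, and Prb1 was the most uneven of them at P20. Members of this family resemble each other in sequence, and how far 1 probe set reads several of them was not tested. A further member, Prpmp5, was already high at P15, at 13.15 to 13.38, and lay at 14.01 to 14.05 at P20, a change of 0.80 ± 0.87 that did not pass (adjusted p = 0.906).

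Chia, an acidic chitinase, was at 9.84, 10.29 and 9.95 on the P15 arrays and at 13.59, 13.60 and 13.37 on the P20 arrays. It rose by 3.49 ± 0.35 (adjusted p = 4.13e-06, limma). Unlike Dnase1 and Prp15, it was well above the low range at P15. The lipocalins are small carriers of hydrophobic ligands, known from the von Ebner glands of the tongue, from tears and from nasal mucus. Lcn1 went from 4.19, 4.75 and 4.40 to 8.86, 7.34 and 8.70, a rise of 3.85 ± 0.35 (adjusted p = 1.14e-06), and Vegp2, a relative of it, from 5.99, 6.25 and 6.22 to 9.14, 9.07 and 9.22, a rise of 2.99 ± 0.27 (adjusted p = 1.12e-06). Obp2b, an odorant-binding lipocalin, rose by 2.68 ± 0.58 (adjusted p = 0.0443), with P15 arrays at 6.78 to 7.16 and P20 arrays at 9.19 to 10.23. Its call was lost in 12 of 19 alternatives. The BPI-fold protein Bpifb1 rose by 1.75 ± 0.32 (adjusted p = 0.01), from 9.73 to 10.62 at P15 to 11.91 to 12.12 at P20.

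The major early products were near the top of the scale at both ages. The highest value on any of the 6 arrays was 14.63, and saturation of these probe sets was not tested. Amy1, salivary amylase, was at 13.61, 13.68 and 13.46 at P15 and 14.24, 14.14 and 14.23 at P20, a change of 0.63 ± 0.64 (adjusted p = 0.894). Bpifa2 differed by 0.15 ± 0.34, Pip, the prolactin-induced protein, by 0.37 ± 0.53 and Smr3a, a precursor of salivary peptides, by 0.38 ± 0.43, all with adjusted p of at least 0.914 in limma. The arrays of Amy1, Pip and Smr3a did not overlap between P15 and P20, and those of Bpifa2 did. The SE of each gene pools its spread within all 9 ages.

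Other saliva genes showed wide differences with large errors. Car6, the secreted carbonic anhydrase VI, was at 5.62, 6.57 and 5.39 at P15 and 9.32, 9.45 and 9.98 at P20, a change of 3.72 ± 1.20 (adjusted p = 0.273). The groups did not overlap, and Car6 passed when only the 6 arrays or only the 12 arrays of dissected gland were fitted. Its mean was 10.43 at P9, so that P15 was a low point between P9 and P20. The P9 to P15 change of Car6, -4.57 ± 1.20, did not pass (adjusted p = 0.297, limma). Oprpn, a precursor of opiorphin-like peptides, had the same course, from 11.23 at P9 to 2.67 to 3.18 at P15 and 5.94 to 6.62 at P20 (change 3.18 ± 1.80, adjusted p = 0.701). The mean of 7 measured markers of other salivary glands had a like course. It lay at 6.97 to 7.84 on the P9 arrays, 3.94 to 4.44 at P15 and 4.57 to 5.16 at P20. The part of other glands in the levels of Car6 and Oprpn was not tested. Cst5, a cystatin, differed by 2.94 ± 1.12 (adjusted p = 0.42), with 1 P15 array at 7.73 and the other two at 11.52 and 11.18. Dmbt1, a bacteria-binding scavenger protein, differed by 2.60 ± 0.91 (adjusted p = 0.347), with P15 arrays at 11.23, 10.64 and 8.75 and P20 arrays between 12.61 and 12.91. Smgc, the mucin of the neonatal sublingual and submandibular glands, was at 2.92 to 3.60 on 5 of the 6 arrays and at 8.33 on the first P20 array. No cause of that array's value was tested.

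**Figure D2:**
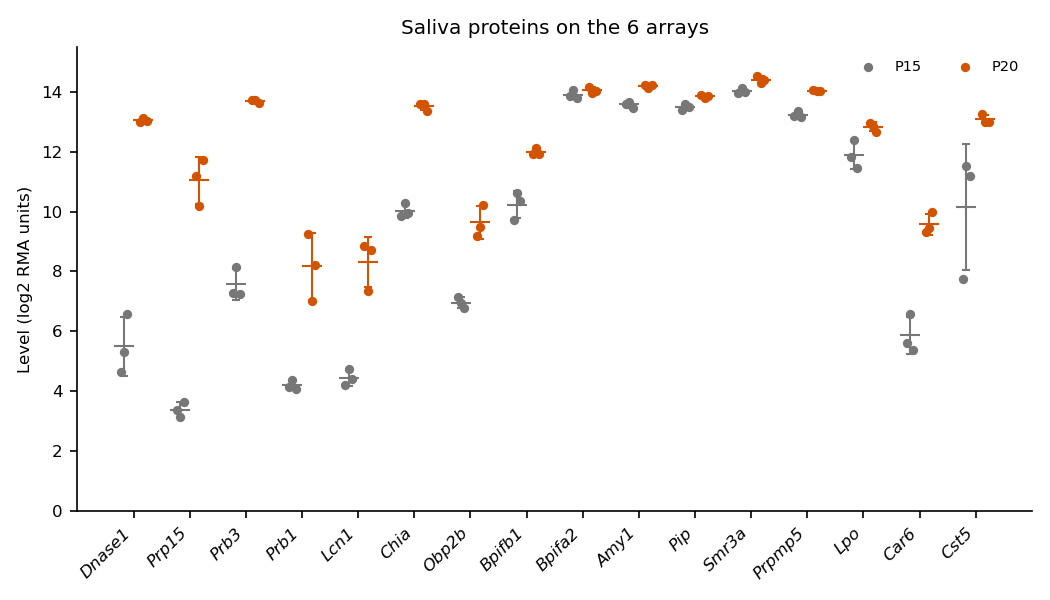
Levels (y axis, log2 RMA units) of 16 saliva protein genes on the 3 P15 arrays (grey) and the 3 P20 arrays (orange), with mean and SD bars. The 8 genes on the left rose. Bpifa2, Amy1, Pip, Smr3a and Prpmp5 sit above 13 at both ages.

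Genes outside the saliva list rose as well. Agt encodes angiotensinogen, the precursor of angiotensin peptides. It went from 7.56, 8.30 and 8.59 to 10.73, 10.40 and 10.98, a rise of 2.55 ± 0.29 (adjusted p = 4.18e-05, limma). Slc12a8, a member of the cation-chloride cotransporter family, rose by 3.04 ± 0.49 (adjusted p = 0.00272), with P15 arrays at 4.52 to 5.58 and P20 arrays at 7.49 to 8.49. Susd2, a membrane protein with a sushi domain, rose by 3.31 ± 0.59 (adjusted p = 0.0084). Its second P15 array, at 6.94, stood about 2 log2 units above the other P15 arrays, at 4.83 and 4.91, and still below the P20 arrays at 8.75 to 8.94. A group of smaller rises, named here because they passed the threshold although they lie outside the naming rule, included the claudin Cldn22 (1.90 ± 0.35), the ribonuclease Rnase1l2 (1.61 ± 0.35), the mucin-type glycosyltransferase Galnt3 (1.58 ± 0.32), the vitamin B12 carrier Tcn2 (1.98 ± 0.38) and the kinase Pim3 (1.78 ± 0.35). The calls of Rnase1l2, Tcn2 and Pim3 were lost in at least 5 of the 6 fits without 1 array. Cldn22 had also risen from P9 to P15, by 3.88 ± 0.35. Of the 77 probe sets that rose, 19 have no gene symbol here. The largest of these, 1392035_at, went from between 2.52 and 3.03 to between 9.36 and 10.58, a rise of 7.15 ± 0.27 (adjusted p = 1.82e-13).

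Immunoglobulin and plasma cell transcripts rose in the same step. Of 10 measured genes of IgA transport and plasma cell products, 4 rose and none fell, against 0.331% of all genes that rose. The 4 genes that rose are known as products of antibody-secreting cells and their B-cell precursors, and not of acinar cells. Jchain encodes the joining chain that links IgA subunits. It was at 6.20, 5.76 and 5.74 at P15 and at 10.52, 10.68 and 10.39 at P20, a rise of 4.63 ± 0.31 (adjusted p = 6.46e-09, limma), and a second Jchain probe set rose by 5.23 ± 0.37. Jchain had already risen from P9 to P15, by 1.91 ± 0.31 (adjusted p = 0.013). Iglc1, a light chain constant region, rose by 4.08 ± 0.52 (adjusted p = 0.000226). Mzb1, an ER protein of antibody-secreting cells, went from 7.79, 7.26 and 6.96 to 10.21, 11.70 and 10.65, a rise of 3.52 ± 0.49 (adjusted p = 0.000672). Pou2af1, a B-lineage coactivator, rose by 3.07 ± 0.59 (adjusted p = 0.0182), and its call was lost in 9 of 18 alternatives, among them 5 of the 6 fits without 1 array. All P20 arrays lay above all P15 arrays for each of the 4 genes.

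The epithelial side of IgA transport is the polymeric immunoglobulin receptor Pigr, which acinar and duct cells use to carry IgA. Pigr was at 9.87, 8.90 and 9.41 at P15 and at 12.31, 12.17 and 12.28 at P20. Its change of 2.86 ± 0.66 did not pass (adjusted p = 0.0616), although the ages did not overlap. Ccl28, the chemokine that draws IgA-producing cells to mucosal glands, differed by 0.47 ± 0.44 (adjusted p = 0.875). The other plasma cell markers did not pass: Sdc1 differed by 0.73, Tnfrsf17 by 0.45 and Prdm1 by 0.27. The mean of the 7 measured plasma cell markers lay at 5.10 to 5.81 on the P15 arrays and at 7.62 to 7.97 on the P20 arrays. None of the 10 measured T and B lymphocyte markers rose or fell, and the mean of these markers lay between 4.40 and 4.75 on the 6 arrays. The part of plasma cells in other rises was tested only as a covariate: with the plasma cell marker mean in the fit, 13 probe sets passed instead of 111, and 11 of the 111 remained. That mean was at 4.78 to 6.04 on the arrays of E18 to P15 and at 7.21 to 7.97 on those of P20 and P25, so that the covariate and the age step cannot be told apart in this fit. The mean also includes Jchain, Iglc1, Mzb1 and Pou2af1, so the fit cannot test these genes.

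The next question was whether the machinery that makes and exports secretory protein moved with the products. Among 63 genes of ER translocation and N-glycosylation 2 rose, among 69 of ER folding and degradation 1, among 75 of ER to Golgi transport none, and no gene of these lists fell. The background was 0.331% of genes higher. The medians of the 3 lists were 0.41, 0.44 and 0.41 log2 units, against 0.04 over all genes. A positive change was found in 51, 54 and 62 of their members, against 54.3% of all genes. At an unadjusted p under 0.05, 18, 14 and 21 members were higher, against 4.78% of all genes. Sec61a1, the channel subunit of the ER translocon, went from 10.28, 10.10 and 9.84 to 11.62, 10.99 and 11.52, a rise of 1.31 ± 0.24 (adjusted p = 0.00964, limma). Its call was kept in 12 of 19 alternatives, and its dimmer probe sets differed by 0.88 ± 0.52 and -0.02 ± 0.25 without passing. Man1b1, the ER mannosidase that marks misfolded glycoproteins, rose by 1.29 ± 0.27 (adjusted p = 0.0341), and its call was lost in 12 of 19 alternatives.

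Herpud1 encodes an ER membrane protein of the degradation machinery and is a standard target of the unfolded protein response. It was at 9.28, 8.93 and 9.05 at P15 and at 10.85, 10.56 and 10.47 at P20, a rise of 1.54 ± 0.25 (adjusted p = 0.00287). P4hb, protein disulfide isomerase, lay just outside the threshold at 0.87 ± 0.19 (adjusted p = 0.0529), as did Dad1, an oligosaccharyltransferase subunit, at 1.10 ± 0.25 (adjusted p = 0.0613), Manf at 1.22 ± 0.30 and Tram1, a translocon partner, at 1.11 ± 0.27. The abundant chaperones were level: Hspa5, the main ER chaperone BiP, was at 11.83 to 12.21 at P15 and 12.10 to 12.12 at P20 (change 0.11 ± 0.18), Hsp90b1 differed by -0.10 ± 0.17, Calr by 0.08 ± 0.19 and Canx by -0.01 ± 0.22. Hyou1, the chaperone partner of Hspa5, was at 9.18 to 9.57 and at 10.40 to 10.60 (change 1.12 ± 0.36, adjusted p = 0.272), without overlap. None of 30 regulators of the unfolded protein response passed. Among them Xbp1 differed by 0.40 ± 0.29, Atf4 by 0.78 ± 0.22 and Atf6 by -0.04 ± 0.39, and Nupr1, a stress-induced chromatin protein, by 2.49 ± 0.81 (adjusted p = 0.286), from 9.42 to 10.02 at P15 to 12.01 to 12.26 at P20. Bhlha15, the acinar transcription factor MIST1, was at 7.16, 7.51 and 7.32 and then at 9.25, 8.77 and 9.05, a change of 1.69 ± 0.51 (adjusted p = 0.224). Most of these values lie in the same direction, and only Herpud1, Sec61a1 and Man1b1 passed.

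Promoters of these genes were read from RefSeq on build GRCr8, 250 bases before to 50 after the transcription start, for 27457 genes, of which 11700 are among the measured genes. The ER stress response element, CCAAT and CCACG with 9 bases between them, and its second form, ATTGG and CCACG with 1 base between them, are bound by ATF6 with NF-Y. On either strand the first form was in the promoters of 21 of the 27457 genes (0.0765%) and of 7 of 60 ER folding genes (11.7%). The second form was in 17 genes (0.0619%) and in 3 of the 60 (5%). Over the 11700 measured genes the shares of the first and second form were 0.145% and 0.094%. Of the 47 genes that rose, 35 have a promoter in the table, and among these only Herpud1 held the second form and none the first. Windows of 30 bases are shown for Herpud1 because it rose, and for chaperone genes of differing change, with the boxes in capitals, in the direction of the gene.
Herpud1, second form, chr19:10614811-10614840, minus strand: cgggcgctgATTGGgCCACGttgggcactg
Hyou1, second form, chr8:53602785-53602814, plus strand: ggtcttctaCGTGGcCCAATggggacgtgc
Dnajb11, second form, chr11:91672790-91672819, minus strand: caggcggcgATTGGcCCACGcctggctgct
Hspa5, first form, chr3:38452968-38452997, plus strand: gttcaCCAATcggaggcctCCACGacgggg
Calr, first form, chr19:40213130-40213159, plus strand: caacgCGTGGtcgaccctgATTGGcccagg
Creld2, first form, chr7:121789234-121789263, plus strand: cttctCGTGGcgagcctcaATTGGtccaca

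In the window of Herpud1 the element starts 124 bases before the transcription start, and in that of Hspa5 43 bases before it. Genes with the element did not share 1 change: Herpud1 rose, Hyou1, Dnajb11 and Creld2 differed by 1.12, 0.62 and 0.76 without passing, and Hspa5 and Calr by 0.11 and 0.08. The C/EBP-ATF response element TTGCATCA, read by ATF4, was in 227 of 27457 genes (0.827%), and in 11 of 45 genes of amino acid supply and tRNA charging (24.4%). Of the genes that rose, only Herpud1 held it, in the window chr19:10614873-10614902 on the minus strand, accacggcgggTTGCATCAgcccgcaccct, where the capitals are the element. The core of the unfolded protein response element, TGACGTG, was in 2.02% of all genes, in 9 of 60 ER folding genes and in 12 of 66 ER to Golgi genes, and in no gene that rose. The E-box CAGCTG read by MIST1 was in 16.2% of all genes, in 17.4% of the measured genes and in 6 of the 35 that rose, which is 17.1%. Over the measured genes the shares of TTGCATCA and TGACGTG were 0.658% and 2.43%. These matches describe letters in a window and not binding.

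Genes of amino acid supply had mostly positive changes and few calls. Of 52 genes of tRNA charging and the ATF4 program 1 rose, against 0.331% of all genes. It was Slc7a1, a cationic amino acid transporter (1.36 ± 0.30, adjusted p = 0.0492 in limma), and its call was lost in 12 of 19 alternatives. In the list, 42 members had a positive change, against 54.3% of all genes, and the median was 0.38. Aldh1l2, a mitochondrial folate enzyme, was at 8.34, 9.05 and 8.58 and then at 10.38, 10.38 and 10.56, a change of 1.79 ± 0.43 (adjusted p = 0.0794). Gpt2, an alanine aminotransferase, differed by 1.69 ± 0.45 on the probe set that stands for it and rose by 3.68 ± 0.61 (adjusted p = 0.00361) on a dimmer one. Of 31 amino acid transporters the same Slc7a1 was the only one called, against 0.331% of all genes higher. The 79 genes of the respiratory chain, ATP synthase and citric acid cycle had a median of 0.11 and no call.

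Granule and fluid genes held few calls. Of 68 genes of the granule exocytosis list 1 rose, the gap junction gene Gjb1, which is also in the junction list. Of 61 genes of fluid secretion and calcium signalling 1 rose, Fxyd2. Over all genes 0.331% rose. The list medians were 0.11 and 0.18. At an unadjusted p under 0.05, 6 granule and 11 fluid genes were higher, against 4.78% of all genes, and the P20 arrays lay above the P15 arrays for 13 and 15 of them, against 10.9%. Gjb1, connexin 32 of acinar gap junctions, went from 4.89, 5.70 and 5.26 to 7.03, 7.03 and 7.43, a rise of 1.88 ± 0.40 (adjusted p = 0.0387, limma). Fxyd2, a regulator of the sodium pump, rose by 2.25 ± 0.49 (adjusted p = 0.0432) from 3.47 to 3.87 at P15. The calls of both were lost in more than 10 of the alternatives. The granule GTPases Rab3d and Rab26 differed by 0.61 ± 0.39 and 0.95 ± 0.55, the water channel Aqp5 by 1.02 ± 0.52, the ATP-gated channel P2rx4 by 1.43 ± 0.36 (adjusted p = 0.101) and the potassium channel Kcnma1 by 1.62 ± 0.47 (adjusted p = 0.174). None of these passed. Of the 12 acinar markers 1 rose, Gjb1, and all 12 had a positive change, against 0.331% and 54.3% of all genes. Their array means were 10.20 to 10.61 at P15 and 11.35 to 11.56 at P20.

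Enzymes of cholesterol synthesis were among the remaining rises. A list of 20 sterol synthesis genes and targets of SREBP2, the transcription factor of cholesterol supply, was drawn up after its members had been seen among the calls, so its counts describe and test nothing. Of the 20, 3 rose and all had a positive change, against 0.331% and 54.3% of all genes, with a median of 1.11. Fdps, which makes farnesyl diphosphate, was at 9.96, 8.83 and 9.73 at P15 and at 11.68, 11.46 and 11.98 at P20, a rise of 2.20 ± 0.32 (adjusted p = 0.00132, limma). Insig1, which holds SREBP in the ER, rose by 1.78 ± 0.30 (adjusted p = 0.00461), and Fdft1, squalene synthase, by 1.75 ± 0.37 (adjusted p = 0.0337). Cyp51, a demethylase of the same route, was at 9.22 to 9.99 at P15 and at 10.75 to 11.01 at P20 and did not pass (adjusted p = 0.0974). The P25 means of Fdps, Insig1 and Fdft1 were 10.49, 9.23 and 7.90, each below the P20 mean of 11.71, 9.84 and 9.15. Lpin1, a phosphatidate phosphatase, rose by 2.24 ± 0.48 (adjusted p = 0.0416), and its call was lost in each of the 6 fits without 1 array. None of 42 genes of lipid metabolism and PPARG targets passed, and Pparg itself differed by -1.20 ± 0.47.

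The second question was which growth genes fell. Of 32 measured imprinted genes 4 fell and none rose, against 0.148% of all genes lower, and the median was -0.30 log2 units. Igf2, the fetal insulin-like growth factor, was at 11.53, 11.49 and 11.70 on the P15 arrays and at 7.74, 7.77 and 8.30 on the P20 arrays. The ages were separated by more than 3 log2 units and each was tight. Igf2 fell by 3.64 ± 0.47, a 12.4-fold drop (adjusted p = 0.000226, limma). The 3 dimmer Igf2 probe sets, at 4.61 to 7.08 on the 6 arrays, differed by 0.12, 0.10 and 0.36 and did not pass. Cdkn1c, the imprinted cell cycle inhibitor p57, went from 9.57, 8.45 and 8.40 to 5.47, 5.97 and 6.20, a change of -2.93 ± 0.47 (adjusted p = 0.00272). It was the only one of 22 cell cycle inhibitors that fell, and it acts against division.

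Dlk1, a Notch-related ligand of immature cells, was at 6.51, 7.89 and 8.21 and then at 5.88, 4.86 and 4.54, a change of -2.44 ± 0.51 (adjusted p = 0.0312). Its first P15 array lay close above its first P20 array, and the call was lost in 7 of 19 alternatives. Ndn, necdin, fell by 1.31 ± 0.25 (adjusted p = 0.0193). H19, the non-coding neighbour of Igf2, was at 12.28 to 12.34 and then at 10.68 to 11.11, a change of -1.47 ± 0.35 that did not pass (adjusted p = 0.0794). Mest differed by -1.99 ± 0.56, Grb10 by -1.35 ± 0.37 and Plagl1 by -0.89 ± 0.24, all without overlap of the ages and none past the threshold. Other imprinted genes were level on the probe set that stands for them, among them Gnas (0.08 ± 0.23), Igf2r (0.43 ± 0.25), Phlda2 (-0.01 ± 0.27) and Cd81 (0.22 ± 0.23). Further probe sets of Gnas differed by 0.05 ± 0.76 and -1.31 ± 0.83, and that of Igf2r by 0.81 ± 0.54. None of these passed, although the ages did not overlap at -1.31 and 0.81.

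Of 44 genes of the IGF, MYC and fetal growth list 3 fell and none rose, against 0.148% of all genes lower, with a median of -0.31. The 3 calls became 1 with the filter on dim probe sets, which left Agtr2 and Tead2 out untested, and 0 on the 6 arrays alone. Agtr2, the angiotensin type 2 receptor known from fetal tissue, was at 6.83, 5.19 and 6.55 and then at 3.70, 3.25 and 2.54, a change of -3.03 ± 0.46 (adjusted p = 0.00162, limma). Agt, the precursor of its ligand, rose in the same step. A second Agtr2 probe set differed by -1.26 ± 0.41 and did not pass. Gpc3, a glypican that restrains growth and binds growth factors, went from 8.90, 7.73 and 8.53 to 4.91, 5.62 and 5.94, a change of -2.90 ± 0.43 (adjusted p = 0.00145 in limma). A dim Gpc3 probe set, at 3.50 to 3.94 on the 6 arrays, differed by 0.07 ± 0.31. Tead2, a partner of YAP in the Hippo pathway, fell by 1.80 ± 0.34 (adjusted p = 0.0166), from 5.99 to 6.90 at P15 to 4.23 to 5.16 at P20. Plag1, a fetal activator of Igf2, was at 5.50 to 6.10 and at 3.80 to 4.08, a change of -1.83 ± 0.41 just outside the threshold (adjusted p = 0.0529 in limma). A second Plag1 probe set differed by -1.11 ± 0.56. Igf2bp3, a fetal RNA-binding protein, differed by -1.52 ± 0.50 (adjusted p = 0.29), Igf1r by -1.39 ± 0.55 and Myc by -0.41 ± 0.37.

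Single genes of developmental signalling fell. Tcf7, a transcription factor of WNT signalling, was at 8.15, 7.01 and 7.40 and then at 4.90, 5.00 and 4.57, a change of -2.69 ± 0.45 (adjusted p = 0.00438, limma). It was the only one of 70 WNT, Notch and SOX genes called, against 0.148% of all genes lower. Sox4 stood at -2.29 ± 0.53 (adjusted p = 0.062), with the first P20 array at 5.33 and the others at 8.12 and 7.82. The other Sox4 probe sets differed by -0.71, -1.28, -0.20, -0.73, 0.07 and 0.42, and none passed. Fst, follistatin, which binds activin, was at 9.50, 9.37 and 9.39 and then at 7.83, 6.91 and 7.05, a change of -2.16 ± 0.30 (adjusted p = 0.000553 in limma). A second Fst probe set differed by -0.77 ± 0.36 and did not pass. Ptprd, a receptor tyrosine phosphatase, fell by 2.56 ± 0.40 (adjusted p = 0.00223), Id4, an inhibitor of basic helix-loop-helix factors, by 1.46 ± 0.24 (adjusted p = 0.00311), and Mex3a, an RNA-binding protein, by 2.43 ± 0.50 (adjusted p = 0.0299). The other probe sets of Ptprd differed by -0.43 and 0.34 and those of Mex3a by -0.61 and -0.34, each with overlapping ages, and the Mex3a call was lost in 5 of the 6 fits without 1 array. A second Id4 probe set fell by 1.75 (adjusted p = 0.00272). No member of 45 receptor tyrosine kinase genes passed, and Etv5, a target of FGF signalling, differed by -2.66 ± 0.65 (adjusted p = 0.0875).

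**Figure D3:**
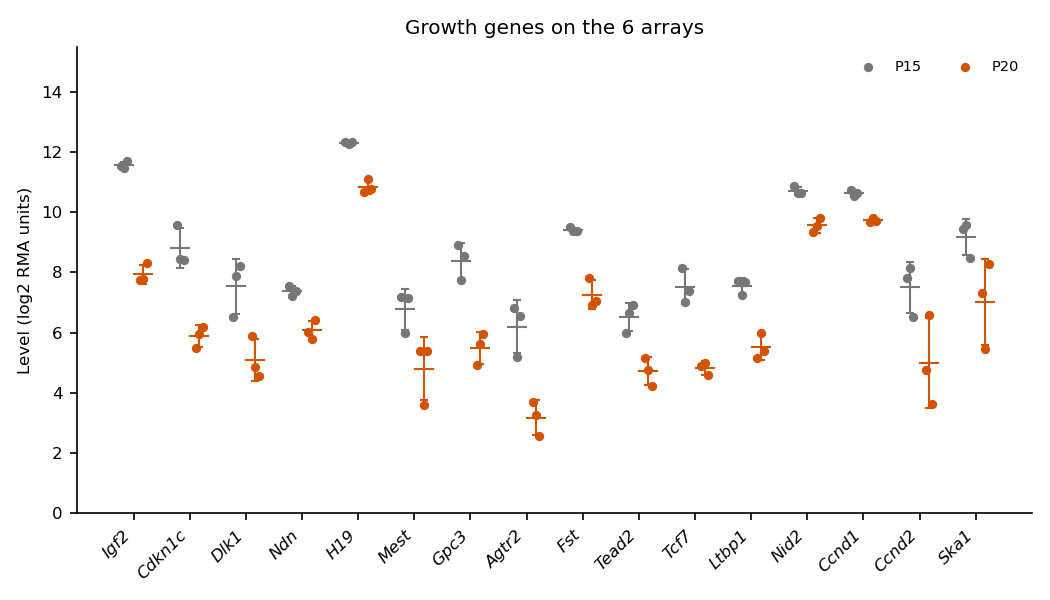
Levels (y axis, log2 RMA units) of 16 growth genes on the 3 P15 arrays (grey) and the 3 P20 arrays (orange), with mean and SD bars. Igf2, Cdkn1c, Dlk1, Ndn, Gpc3, Agtr2, Fst, Tead2, Tcf7, Ltbp1 and Nid2 fell, and the P20 arrays of Ccnd2 and Ska1 are spread.

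A few matrix and cytoskeletal genes fell. Of 75 collagen and matrix genes 2 fell and none rose, against 0.148% of all genes lower, with a median of -0.37 and with 20 members whose P20 arrays all lay below the P15 arrays, against 8.02% of all genes. Ltbp1, which stores latent TGF-beta in the matrix, was at 7.73, 7.24 and 7.67 and then at 5.16, 5.99 and 5.38, a change of -2.04 ± 0.31 (adjusted p = 0.00161, limma). Nid2, a basement membrane nidogen, fell by 1.15 ± 0.25 (adjusted p = 0.0393). The proteoglycan Vcan differed by -2.57 ± 0.78 on the probe set that stands for it (adjusted p = 0.216) and fell by 1.93 ± 0.31 on another (adjusted p = 0.00286). Akap12, a kinase scaffold, fell by 2.24 ± 0.34, Aif1l, an actin-bundling protein, by 2.17 ± 0.36 and Cnn3, a calponin, by 1.61 ± 0.36. Fstl1, a secreted glycoprotein of mesenchyme, fell by 1.02 ± 0.22. Fibroblast markers moved the same way as these genes: 14 of 15 had a negative change, against 45.7% of all genes, and none passed. Their median was -0.42, and their array means were 8.91 to 9.35 at P15 and 8.46 to 8.72 at P20. With that mean as a covariate 28 probe sets fell instead of 34. Igf2, Agtr2, Cdkn1c, Gpc3, Tcf7 and Fst remained past the threshold in that fit, and Ndn, Nid2, Fstl1 and Cnn3 did not. Rises such as those of Bpifb1 and Sec61a1 lost their calls in it as well. The mean did not overlap between the ages, so the covariate and the age step cannot be fully told apart. A call kept or lost in this fit therefore does not assign a gene to a cell type.

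No gene of the cell division lists passed. Of 72 mitosis genes none rose or fell, 60 had a negative change against 45.7% of all genes, and the median was -0.43. At an unadjusted p under 0.05, 4 were lower, against 4.43% of all genes. The list means were 7.95, 8.01 and 7.53 on the P15 arrays and 7.68, 6.89 and 7.69 on the P20 arrays. The ages overlapped, and the second P20 array was the lowest. Ska1, a spindle and kinetochore protein, was at 9.45, 9.58 and 8.48 at P15 and at 7.32, 5.46 and 8.28 at P20, a change of -2.15 ± 0.51 (adjusted p = 0.076 in limma). The third array of each age lay close together, at the lower end of P15 and the upper end of P20. The proliferation marker Mki67 was at 12.31 to 12.73 and at 12.08 to 12.49, a change of -0.20 ± 0.20. Of 72 genes of DNA replication and entry to S phase none passed, 49 were negative, the median was -0.11, and 9 were lower at an unadjusted p under 0.05. Their means also overlapped, at 7.80, 7.50 and 7.25 at P15 and 7.57, 6.90 and 7.41 at P20. The cyclins Ccnd1 and Ccnd2 differed by -0.91 ± 0.29 (adjusted p = 0.259) and -2.51 ± 0.70 (adjusted p = 0.149), Mcm3, a subunit of the replicative helicase, by -1.53 ± 0.42 (adjusted p = 0.137), Pcna by -0.61 ± 0.43 and Mcm2 by -0.05 ± 0.40. The 70 genes of ribosome biogenesis had a median of -0.10 and no call.

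The letters of the cell cycle gene homology region, TTTGAA, were in the promoters of 38 of 60 mitosis genes (63.3%). The share was 19.4% of all genes and 13.3% of the measured genes. The S-phase letters TTTGGCGC of E2F were in 11 of 60 replication genes (18.3%), against 0.554% of all genes and 0.829% of the measured genes. Of the 17 genes that fell and have a promoter, 2 held the homology region and none the E2F letters.

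**Figure D4:**
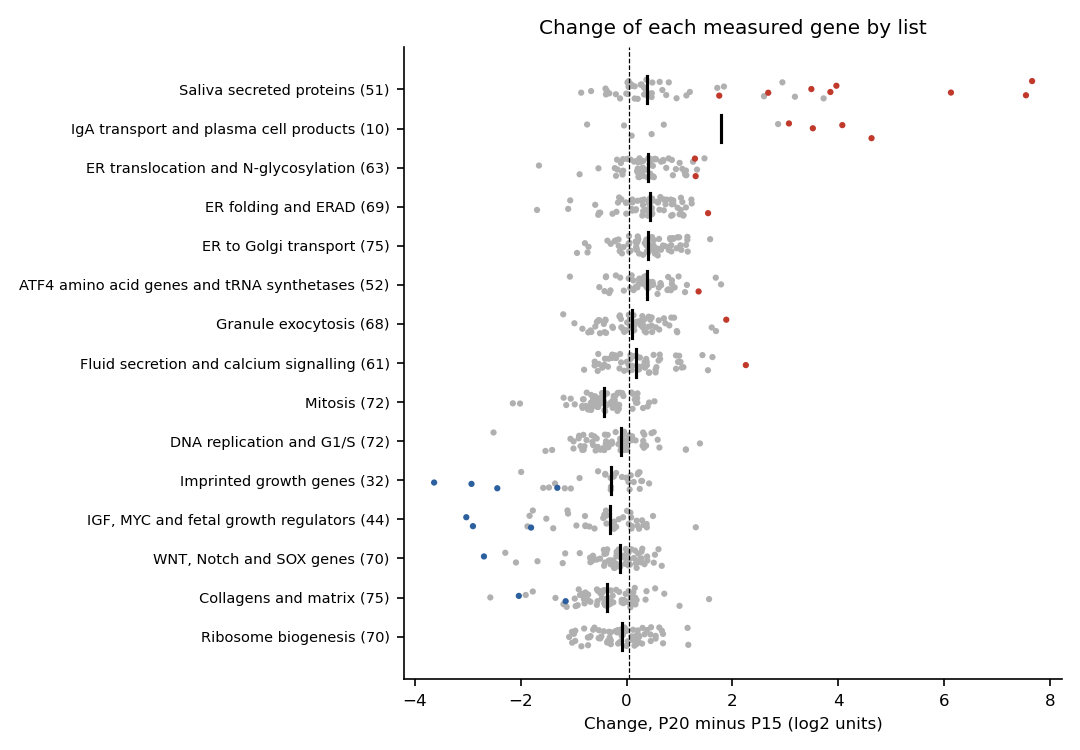
Change from P15 to P20 (x axis, log2 units) of each measured gene in 15 lists, with the number of genes in brackets. Red points rose, blue points fell, grey points did not pass, black bars mark list medians, and the dashed line marks the median of all genes at 0.04. The saliva list holds the points above 6, and the imprinted list reaches -3.64.

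Further lists held few or no calls. Among 22 basal, duct and myoepithelial keratin and contractile genes none passed, and 19 were negative, against 45.7% of all genes. The median was -0.69, and the P20 arrays lay below the P15 arrays for 11 of the 22, against 8.02% of all genes. Krt5 differed by -1.50 ± 0.55 and Krt19 by -1.40 ± 0.44. Of the 9 myoepithelial markers 8 were negative, with array means of 8.15 to 8.86 at P15 and 7.56 to 7.88 at P20. Of 32 junction genes 1 rose, Gjb1, against 0.331% of all genes. Cdh1, E-cadherin, was at 10.08 to 10.15 and at 9.02 to 9.27, a change of -0.99 ± 0.22 (adjusted p = 0.0559 in limma). Among 15 factors and markers of the study's gene network, Tead2 was the only one called, against 0.148% of all genes lower. Sox11 differed by -0.42 ± 0.26, Klf4 by 0.71 ± 1.00 and Egr1 by -1.10 ± 0.36. None of the markers of salivary ducts, endothelium, macrophages, mast cells, adipocytes or Schwann cells passed, and the medians of these lists lay between -0.30 and 0.25. None of 28 glucocorticoid-induced genes and none of 9 reference genes passed, with medians of 0.23 and -0.24.

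The circadian clock list had no call, with wide separations in its output genes. Nr1d1, a nuclear receptor of the clock, was at 6.14, 5.64 and 6.59 at P15 and at 9.32, 8.49 and 9.18 at P20 (change 2.87 ± 0.69, adjusted p = 0.0794 in limma). Dbp was at 7.92 to 8.43 and at 10.21 to 10.67 (change 2.27 ± 0.61, adjusted p = 0.136), and Per1 differed by 1.31 ± 0.43 (adjusted p = 0.304). The hour of collection is not given in the sources used here and was not tested. Class II antigen-presenting genes, a list of 8 also drawn up after its values were seen, went both ways: RT1-Bb rose by 2.01 ± 0.31 (adjusted p = 0.00177), RT1-Ba differed by -2.60 ± 0.75 (adjusted p = 0.174), and Cd74 by -0.25 ± 0.70.

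The step was then set against the steps on either side, which share its P15 or its P20 arrays. The change from P15 to P20 minus that from P9 to P15 passed for 11 of 31042 probe sets (0.0354%), 10 higher and 1 lower, the unnamed 1391843_at. For Prp15 this difference was 7.81 ± 0.90 (adjusted p = 0.000266, limma), for Dnase1 5.74 ± 0.67 (adjusted p = 0.000266) and for Prb3 4.71 ± 0.56 (adjusted p = 0.000278). Prb1 (4.28 ± 0.66) and Lcn1 (3.84 ± 0.61) followed, both at an adjusted p of 0.0101. Their earlier steps were 1.81 ± 0.39 for Dnase1 and 1.42 ± 0.33 for Prb3, and close to 0 for Prp15 (-0.15 ± 0.52), Prb1 (-0.31 ± 0.38) and Lcn1 (0.01 ± 0.35). Chia differed from these: it rose by 5.79 ± 0.35 from P9 to P15, so that its rise spanned both steps, and the difference of -2.29 ± 0.60 did not pass.

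The change from P15 to P20 minus that from P20 to P25 passed for 20 probe sets (0.0644%), 18 higher and 2 lower. Among genes with 1 symbol the 5 largest positive differences were those of Prp15 (9.08 ± 0.90, adjusted p = 1.28e-05), Dnase1 (6.73 ± 0.67, 1.28e-05), Prb3 (5.88 ± 0.56, 1.17e-05), Iglc1 (5.32 ± 0.91, 0.0142) and Mzb1 (5.18 ± 0.85, 0.0112). Jchain, Chia and Fdps passed as well, at 3.66 ± 0.54, 3.50 ± 0.60 and 3.41 ± 0.56. Lcn1 and Vegp2 went on rising from P20 to P25, by 3.32 ± 0.35 and 2.98 ± 0.27, and their differences between steps of 0.53 ± 0.61 and 0.01 ± 0.47 did not pass. On the falling side were Gpc3 (-4.46 ± 0.75, adjusted p = 0.0127) and Fst (-3.37 ± 0.51, adjusted p = 0.00526), whose P25 means of 7.04 and 8.47 lay above their P20 means of 5.49 and 7.26. Igf2 went on from 7.94 at P20 to 6.39 at P25, and Agtr2 and Tcf7 had P25 means of 3.04 and 4.78, near their P20 means of 3.16 and 4.82. The step from P20 to P25 on its own called 286 probe sets and that from P9 to P15 called 19.

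**Figure D5:**
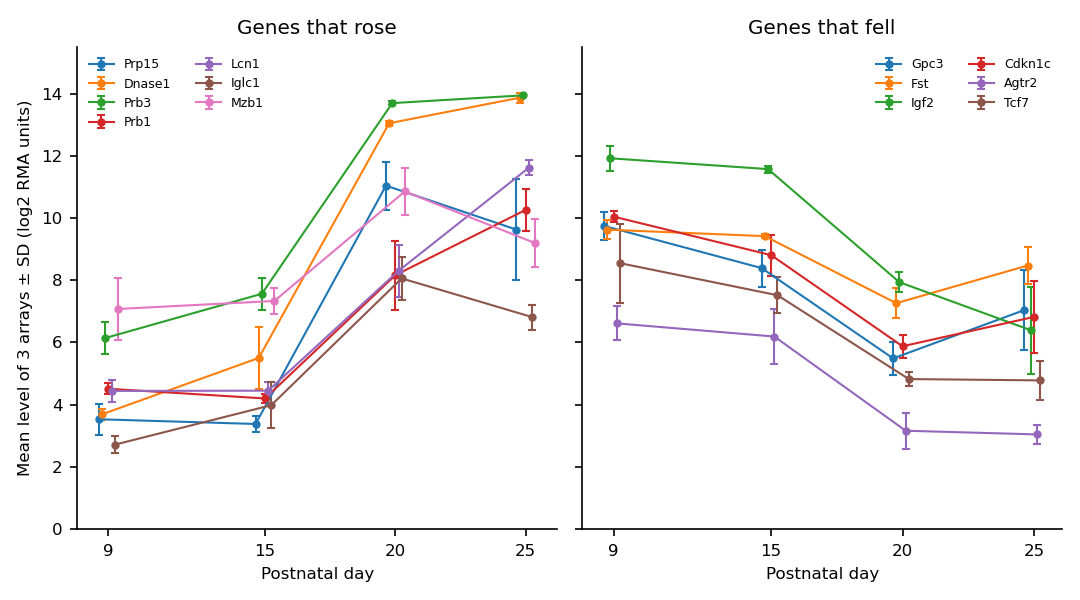
Mean level of 3 arrays per age ± SD (y axis, log2 RMA units) at P9, P15, P20 and P25 (x axis, postnatal day, points shifted slightly sideways). In the left panel 7 genes that rose from P15 to P20 and in the right panel 6 that fell. Dnase1 and Prb3 reach 13.05 and 13.70 at P20, and Gpc3, Fst and Cdkn1c are lowest at P20.

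Skeletal muscle transcripts differed between the arrays beside all of these results. The mean of the 17 measured muscle markers was 4.95, 4.91 and 7.25 on the P15 arrays and 7.27, 8.73 and 7.06 on the P20 arrays. Of the 17, 15 had a positive change, against 54.3% of all genes, with a median of 2.30, and none passed. The fast myosin Myh4 differed by 4.98. With that mean as a covariate, an alternative added after the data were seen, 106 probe sets passed, and 87 of the 111 remained. Its part in the results was not tested otherwise.

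Dnase1, Prp15, Prb3, Lcn1, Vegp2 and Jchain passed the threshold under all 19 alternatives, and Chia, Iglc1, Mzb1, Igf2, Ptprd and Aif1l under all but the plasma cell covariate. Of the calls given here, those of Cnn3, Nid2, Fstl1, Fxyd2, Obp2b, Gjb1, Slc7a1, Lpin1, Rnase1l2, Man1b1, Mex3a, Pim3, Tcn2 and Pou2af1 were lost in at least 5 of the 6 ways to leave out a single array. The calls lost both on the 6 arrays alone and on the 12 arrays included falls and rises. Among them were the falls of Cdkn1c, Gpc3, Ltbp1, Id4 and Akap12 and the rises of Herpud1, Sec61a1 and Insig1. Those of Agtr2 and Fst were lost on the 6 arrays and kept on the 12.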

How the data were processed

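Gene expression was measured on 27 rat genome arrays, 3 per age, from amplified RNA of laser-captured parotid acini. The authors background-corrected, normalised and summarised the scans by robust multi-array average and deposited log2 values for 31099 probe sets. After 57 array controls were left out, 31042 remained, 20826 with 1 gene symbol, 436 with several and 9780 with none in the platform annotation, and 20758 matched RefSeq by gene ID. Columns were matched to samples by accession, and 0 columns belonged to no sample. The values are not counts, so there is no read depth and the number of arrays sets the precision.

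All arrays were fitted in limma 3.58.1 (R 4.3.3) with 1 coefficient per age, moderated by eBayes, and tested two-sided for P20 against P15 and for its difference from the steps before and after. P-values were adjusted by Benjamini and Hochberg at 0.05. The highest-mean probe set stood for each of 14217 genes. The genes, lists and comparison were chosen with earlier results of these data known. Named were the 15 largest rises and falls past the threshold without overlap, every measured saliva, imprinted and network list member, of which the text gives a part, up to 4 members of each other list by moderated t, the members of each marker list past the threshold or else the 2 brightest, and the 5 largest step differences each way. Names outside the rule were chosen after their values were seen, among them Pigr, Sdc1, Tnfrsf17, Prdm1, Mki67, Myh4, Hspa5, Calr, Canx, Hsp90b1, Pcna, Mcm2, second probe sets, and the sterol and class II lists. Tested on simulated data with 31042 probe sets, the P20 against P15 fit recovered 10%, 68%, 86% and 90% of true changes of 1, 2, 3 and 4 log2 units, with 3 false calls. The simulated errors were normal and independent, with a single spread per probe set over all ages. They held no tissue differences shared by many genes of an array, so these rates need not hold for the real arrays.

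Replicate numbers come from the labels and were not treated as pairs. With the mean of its age subtracted from each array, same-numbered P15 and P20 arrays correlated at 0.0884, 0.00452 and -0.024. In the same way, arrays of different number correlated at between -0.128 and 0.141. Alternatives were quantile normalisation, median centring, fits of 6 or 12 arrays, a mean-variance trend, array weights, the replicate block, covariates for sex, fibroblast, plasma cell and muscle markers and RNA integrity by GAPDH probe sets, a filter at a mean of 6, the mean of a gene's probe sets, and single arrays left out. Promoter letters came from RefSeq on GRCr8 and both strands were searched with Python 3.11.15. The 5-base boxes CCAAT and CCACG lie within the ER stress response elements.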

Additional observations from a re-analysis of the deposited data

Results flagged for a closer look

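The change from P15 to P20 differed from that of a neighbouring step, by the tested contrast in limma, for the genes given here. Each contrast shares the P15 or the P20 arrays with the step itself, so the values are not independent of it. Against the step before, the difference was 7.81 for Prp15, 5.74 for Dnase1, 4.71 for Prb3, 4.28 for Prb1, 3.84 for Lcn1 and 2.99 for Vegp2. Against the step after, it was 9.08 for Prp15, 6.73 for Dnase1, 5.88 for Prb3, 5.32 for Iglc1, 5.18 for Mzb1, 4.78 for the uncharacterised LOC102553902, 3.66 for Jchain, 3.50 for Chia, 3.41 for Fdps and 3.32 for RT1-Bb. On the falling side it was -4.46 for Gpc3 and -3.37 for Fst, whose own changes from P20 to P25 were 1.56 ± 0.43 (adjusted p = 0.086, limma) and 1.21 ± 0.30 (adjusted p = 0.052, limma).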

How the results depend on the processing

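The 111 calls (77 higher, 34 lower) became 385 (213 and 172) with array weights, 46 (32 and 14) on the 6 arrays, 35 (27 and 8) on the 12 arrays of dissected gland and 13 (12 and 1) with the plasma cell covariate, and 50 were higher with the fibroblast covariate. Array weights kept all 111, and the plasma cell covariate, which nearly splits P20 and P25 from every earlier age, kept 11. The fits of 6 and of 12 arrays kept 29 and 30 of the 111. Without 1 array the counts were 59 to 96 (41 to 64 higher, 17 to 32 lower), with 61, 71 and 59 when P15 array 1, 2 or 3 was left out. Saliva genes higher went from 8 to 5 and IgA genes higher from 4 to 1 with the plasma cell covariate. The covariate mean includes Jchain, Iglc1, Mzb1 and Pou2af1, the 4 IgA genes that rose, so this fit cannot test them. Imprinted genes lower went from 4 to 1 on the 6 or the 12 arrays, to 0 with the plasma cell covariate, and to between 2 and 3 without 1 array, the 2 without P15 array 3. Growth regulators lower went from 3 to 5 with array weights, 1 with the dim filter or the 12 arrays, and 0 on the 6 arrays or with the plasma cell covariate. The dim filter removed Agtr2 and Tead2 before the fit. Differences from the step before went from 11 to between 4 and 15 without 1 array, the 4 without any P15 array. Those from the step after went from 20 to 10 on the 12 arrays and to between 10 (without P20 array 1) and 39 (without P25 array 1 or 2) with 1 array left out. Apart from the genes that the dim filter removed, the cause of these shifts was not tested. Among called genes only Dlk1 turned direction, to 0.26 with the plasma cell covariate. Sign changes of the 70 genes past the threshold in neither fit were not counted. Of 200 named genes not called, 35 passed in some alternative. With the replicate block 111 probe sets passed, 76 higher and 35 lower, and 95 of the 111 remained. It cost Gjb1, Fxyd2, Nid2, Cnn3, Fstl1, Spaca6, Rnase1l2, Cuzd1, Gramd2b and Plpp5 their calls. With 3 arrays per age, true changes of 1 log2 unit were mostly missed in the simulated data.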

Other observations

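The GAPDH control probe sets, whose 3 prime minus 5 prime difference tracks RNA integrity, differed by 2.23, 1.29 and 1.12 log2 units on the P15 arrays and by 1.97, 1.29 and 1.31 on the P20 arrays, so that the ranges overlapped. By Xist and Eif2s3y, the first P15 array had a male-like pattern (3.44 and 8.40) the second likewise (4.85 and 7.41) and array 3 a female-like one (10.93 and 2.96). At P20 arrays 1 (10.89 and 2.89) and 3 (10.93 and 2.61) were female-like and array 2 male-like (4.23 and 6.45). Of 25 called probe sets with no symbol, 19 rose and 6 fell, and the largest fall was that of 1380143_at, from 10.64, 10.62 and 10.83 to 7.09, 7.77 and 8.19 (change -3.01 ± 0.40, adjusted p = 0.000338 in limma).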
